A study of Mus musculus with 32 samples.

Results

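Female germ cells exposed to bisphenol A (BPA) in the fetal ovary are described here against female germ cells of vehicle-treated litters. The members were taken from the sample labels alone: 3 arrays of BPA-exposed oocytes and 3 arrays of oil oocytes, 6 of the 32 arrays in the series. Gestating FVB dams mated to OG2 males received 0.2 mg/kg of BPA a day by gavage starting at 12.5 days post coitum (dpc), or the corn oil vehicle alone, and the germ cells of the directly exposed fetuses (G1R) were collected at 17.5 dpc. The OG2 transgene places EGFP under the Oct4 promoter, so that the cells were sorted by germline fluorescence, and the 6 arrays share the FVBxOG2 genotype. Each array measured total RNA on a Mouse Gene 1.0 ST array, and the labels do not say whether the 3 arrays of a group come from separate litters or from pooled fetuses. The p-values therefore measure the spread between arrays, part of which may be technical.

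BPA is a phenol with weak affinity for the estrogen receptors, and it also binds the estrogen-related receptor gamma and the membrane receptor GPER1. Female germ cells of the mouse enter meiosis in the fetal ovary, in answer to retinoic acid and BMP signals, and pair and recombine their chromosomes in prophase before birth. Near the end of gestation the first oocyte transcription factors, such as FIGLA, NOBOX and LHX8, switch on the genes of the zona pellucida and of the maternal store, and many oocytes are lost. The comparison asks whether BPA, given over these days, left a mark on the transcripts of the exposed oocytes.

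The labels call all cells primordial germ cells, and the markers of the 6 arrays were those of oocytes. The mean log2 signal of 12 oocyte markers was 11.53, 11.74 and 11.63 in the BPA arrays, against 11.72, 11.5 and 11.62 in the oil arrays. In the 3 arrays of BPA-exposed male germ cells it lay between 9.28 and 9.38. For 7 markers of prospermatogonia, the male germ cells of this age, the BPA oocyte arrays lay between 7.98 and 8.06 and the oil oocyte arrays between 8.1 and 8.12, while the BPA male arrays lay between 10.42 and 10.49. All BPA oocyte arrays were thus below all oil oocyte arrays on this list, with a median log2 fold change of -0.11, which was 0 without BPA array 2. Nanos2, a regulator of the male germline, had 6.28, 6.03 and 5.98 in BPA oocytes, against 6.38, 6.31 and 6.45 in oil oocytes (adjusted p = 1). The 8 Y-linked genes averaged 5.76 to 6.02 in BPA oocytes and 5.68 to 5.92 in oil oocytes, against 8.38 to 8.52 in BPA males, which shows the signal that an absent transcript leaves on this array. Single Y-linked genes spanned 4.58 to 8.13 over these arrays. The means of 16 granulosa cell markers spanned 7.27 to 7.4 in BPA arrays and 7.21 to 7.42 in oil arrays, those of 13 stromal markers 7.07 to 7.19 and 7.15 to 7.21, and those of 10 endothelial markers 6.59 to 6.72 and 6.62 to 6.76.

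BPA array 1 stood apart in genes of mast cells, a list of 12 chosen after its values were seen. Cpa3, the mast cell carboxypeptidase gene, had log2 signals of 8.92, 5.09 and 5.45 in BPA oocytes, against 5.46, 5.32 and 5.31 in oil oocytes. Only BPA array 1 was high. The tryptase genes Tpsb2 and Tpsab1 followed it, with 7.92 and 7.4 in BPA array 1 and at most 6.76 and 6.26 in the other BPA arrays, against oil maxima of 6.95 and 6.15. Over the list, the array means were 6.49, 5.66 and 5.7 in BPA oocytes and 5.74, 5.84 and 5.83 in oil oocytes. Cpa3 was also high in oocytes of dams given the other agents, with 8.19 and 8.97 after di-(2-ethylhexyl) phthalate (DEHP) and 8.04, 6.34 and 7.79 after vinclozolin (VZ). The part of these transcripts in the results below was not tested beyond leaving BPA array 1 out.

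No probe passed the test of BPA against oil oocytes in the limma model of all arrays. Of 35556 probes tested, 0 had an adjusted p under 0.05 (0%), and the smallest adjusted p was 0.229. At an unadjusted p under 0.05 there were 1622 probes (4.56%), 817 of them higher and 805 lower in BPA oocytes. Read by gene, with the brightest probe standing for each of 19938 genes, 304 were higher (1.52%) and 465 lower (2.33%) at that p, and the median log2 fold change was 0.002. The precision was high for most genes. The 95% interval of the fold change lay within 1.5-fold either way for 19225 genes (96.4%), with a median standard error of 0.112 on the log2 scale. Without BPA array 2, 3 probes passed, Olfr993 among them, and without oil array 2, 2 probes did. Without BPA array 1, the share of genes at an unadjusted p under 0.05 was 6.5%, and 1 probe, that of the oocyte gene Tcl1b3, passed the adjusted test.

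The receptors through which BPA could act were measured at similar levels in both groups. Esr1, which encodes estrogen receptor alpha, had log2 signals of 7.53, 7.25 and 7.58 in BPA oocytes, against 7.64, 7.19 and 7.53 in oil oocytes. Esr2, the gene of estrogen receptor beta, had 6.45, 6.48 and 6.44 in BPA oocytes, against 6.43, 6.35 and 6.81 in oil oocytes. The groups overlapped at both genes, and the 95% intervals of the log2 fold change ran from -0.32 to 0.31 for Esr1 and from -0.33 to 0.19 for Esr2. Gper1 had 7.29, 7.24 and 7.18 in BPA oocytes and 7.04, 7.28 and 7.26 in oil oocytes. The estrogen-related receptor genes Esrra, Esrrb and Esrrg had log2 fold changes of 0.18, -0.08 and 0.06. Esrra came nearest to a difference, with 7.7, 7.61 and 7.42 in BPA oocytes against 7.3, 7.39 and 7.49 in oil oocytes (adjusted p = 1, limma).

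All 18 measured receptors of the list had 95% intervals within 1.5-fold, beside 96.4% of all genes. At an unadjusted p under 0.05 there were 0 of them, beside 3.86% of all genes. Of the 18, 5 had a mean signal above 8.13, the highest of the Y-linked genes, beside 39% of all genes. Esr1, Esr2 and Gper1 lay below it, so the signal does not tell whether they are expressed in these cells. Ahr and its partner Arnt, which sense aryl hydrocarbons, were the brightest of the receptor genes, with means of 9.98 and 9.94 in BPA oocytes, against 9.96 and 9.89 in oil oocytes. The thyroid hormone receptor gene Thra had 9.16, 9.86 and 9.17 in BPA oocytes, against 9.42, 9.1 and 9.29 in oil oocytes, with the highest value in BPA array 2. Thrb, Nr1i2, Nr1i3, Ppara, Ppard, Pparg, Nr3c1 and Nr3c2 had log2 fold changes between -0.05 and 0.1. Pgr, the progesterone receptor gene and a target of estrogen in other tissues, had -0.16 (95% interval -0.36 to 0.05).

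Genes that answer to estrogen in other tissues showed no difference past the test. Of 23 measured genes, 0 had an unadjusted p under 0.05 in either direction, beside 3.86% of all genes. Intervals lay within 1.5-fold for 22 of them, beside 96.4% of all genes. The median log2 fold change was -0.04, beside 0.002 over all genes. Of the 23, 5 had a mean signal above that of the brightest Y-linked gene. Wnt4 had the lowest value, -0.17, and Pdzk1 the highest, 0.25. Pdzk1, which encodes a scaffold of membrane transporters, had 7.85, 8.75 and 8.12 in BPA oocytes, against 8.35, 7.65 and 7.97 in oil oocytes. It was highest in BPA array 2 and lowest in oil array 2, so that the groups overlapped.

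Direct binding of the estrogen receptors is known from a palindromic element of 13 bases. It was searched as GGTCA, any 3 bases and TGACC, which reads alike on both strands, in the RefSeq promoters of build GRCm38.p6, from 250 bases before to 50 bases after each gene start. Of 32851 promoters, 23 held it (0.07%), and of the 19938 genes measured, 15614 had a promoter in the table and 6 held the element. None of the 17 estrogen response genes with a promoter did, so the sites of the other genes are shown as the full set that these windows offer. The element is in capitals:
Evx2 (chr2:74659576-74659604, minus strand): gatgtatgGGTCATTTTGACCagtcattc
Hbb-y (chr7:103853281-103853309, minus strand): ggaccacgGGTCAGGCTGACCaatagctt
Tex45 (chr8:3470788-3470816, plus strand): actcttgaGGTCACAATGACCtgggccag
Olfr853 (chr9:19537980-19538008, minus strand): gagtacagGGTCAGAGTGACCttgtacat
Cd300c (chr11:114960732-114960757, minus strand): agggtGGTCAACCTGACCagaaacag
Pde10a (chr17:8849994-8850022, plus strand): gggcggttGGTCAACCTGACCagagggag

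These 6 genes, named for the element and not by their values, showed no common direction. Cd300c, which encodes a receptor of myeloid cells, had 6.52, 6.5 and 6.41 in BPA oocytes, against 6.65, 6.7 and 6.74 in oil oocytes, a difference of -0.22 on the log2 scale (SE 0.08, limma adjusted p = 0.865). Its groups did not overlap, at a level near that of absent transcripts. The phosphodiesterase gene Pde10a, with the same 13 bases as Cd300c, had a log2 fold change of 0.07 (95% interval -0.13 to 0.28). Evx2, Tex45, Olfr853 and Hbb-y had 0.02, 0.02, -0.01 and -0.19, with overlapping groups. A match of letters in a window is a description and not a site of binding.

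Of 12 measured genes of steroid synthesis and metabolism, 0 had an unadjusted p under 0.05, beside 3.86% of all genes. Only 5 of the 12 had intervals within 1.5-fold, beside 96.4% of all genes. The bounds of the intervals ran from -1.66 to 1.48 on the log2 scale, so larger changes could go unseen in this list. Of the 12, 2 had a mean signal above that of the brightest Y-linked gene. Hsd17b3, which makes testosterone and which the study follows in males, was near the level of absent transcripts in oocytes, with 5.96, 6 and 5.93 after BPA and 6.03, 5.8 and 5.88 after oil. Hsd3b6, a gene of the family that forms progesterone and androstenedione, had 8.33, 9.22 and 8.63 in BPA oocytes against 8.88, 8.24 and 8.07 in oil oocytes, and the groups overlapped. Of 25 genes that process foreign compounds, 1 was higher and 1 lower at an unadjusted p under 0.05 (8%, beside 3.86% of all genes). The efflux transporter gene Abcg2 had 7.07, 7.03 and 7.04 in BPA oocytes, against 6.94, 6.82 and 6.7 in oil oocytes. The sulfotransferase gene Sult1c2 had 5.42, 5.43 and 5.41 in BPA oocytes, against 6.07, 5.61 and 5.54 in oil oocytes. The groups did not overlap at either gene, yet both had an adjusted p of 1 in limma.

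Genes of the meiotic chromosome axis and of the synaptonemal complex, which ties paired chromosomes together, had the narrowest span of fold changes among lists. All 9 measured genes lay between -0.05 and 0.05 on the log2 scale, and no 95% interval reached below -0.38 or above 0.36. Sycp3, which encodes an axis protein and is bright in these cells, had 12.03, 12.2 and 12.24 in BPA oocytes, against 12.31, 12.13 and 12.07 in oil oocytes. Sycp2 had 11.04, 10.65 and 11.06 in BPA oocytes and 10.94, 11.05 and 10.92 in oil oocytes. The groups overlapped at both genes, and Sycp2 was lowest in BPA array 2. Tex12, a protein of the central element, had 9.89, 9.87 and 9.9 in BPA oocytes, all above the 9.83, 9.85 and 9.83 of oil oocytes, a difference of 0.05 (95% interval -0.17 to 0.27).

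Among 10 genes of meiotic cohesins and of the tethers that fix telomeres to the nuclear envelope, Rec8 was the 1 gene at an unadjusted p under 0.05. That is 10% of the list, beside 3.86% of all genes. Rec8, the cohesin subunit that holds sister chromatids until the meiotic divisions, had 7, 6.78 and 6.62 in BPA oocytes, against 6.89, 7 and 7.3 in oil oocytes. BPA array 1 lay within the oil range, and the difference was -0.26 on the log2 scale (SE 0.12, adjusted p = 1). Stag3, another cohesin gene and a far brighter one, had 11.51, 11.01 and 11.27 in BPA oocytes, against 11.26, 11.41 and 11.32 in oil oocytes. Of 26 genes of meiotic recombination, 0 had an unadjusted p under 0.05, beside 3.86% of all genes. All 26 had intervals within 1.5-fold, beside 96.4% of all genes. The log2 fold changes of the 26 lay between -0.17, for Zfp541, and 0.11, for Brca2, which loads recombinases on broken DNA. Mei1, needed for the breaks that start recombination, had -0.15.

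Female germ cells enter meiosis through the retinoic acid pathway. Of its 19 measured genes, 0 had an unadjusted p under 0.05, beside 3.86% of all genes, and the median was 0.02. The receptor gene Rarg had the lowest value, -0.2, and Crabp1, which binds retinoic acid in the cytoplasm, the highest, 0.19. Rdh10, whose product makes retinal, had 9.73, 9.72 and 9.72 in BPA oocytes, against 9.7, 9.47 and 9.56 in oil oocytes. The BPA arrays all lay above the oil arrays, by a mean of 0.14 (adjusted p = 1).

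The oocyte transcription factors were bright in both groups. Figla, which turns on the zona genes, had 10.98, 11.09 and 10.95 in BPA oocytes, against 11.01, 10.99 and 11.02 in oil oocytes. Nobox had 11.79, 12.14 and 11.81 in BPA oocytes and 11.94, 11.85 and 11.9 in oil oocytes. Lhx8 and Sohlh1, which act beside them, had log2 fold changes of -0.08 and -0.06, and Taf4b, a subunit of the transcription machinery of the gonad, had 0.02. For all 12 oocyte markers, among them Kit, Ddx4, Dazl, Dppa3, Nlrp5 and Uchl1, the interval lay within 1.5-fold, beside 96.4% of all genes. The plot of signals by array sets Figla beside genes that varied more.

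**Figure D1:**
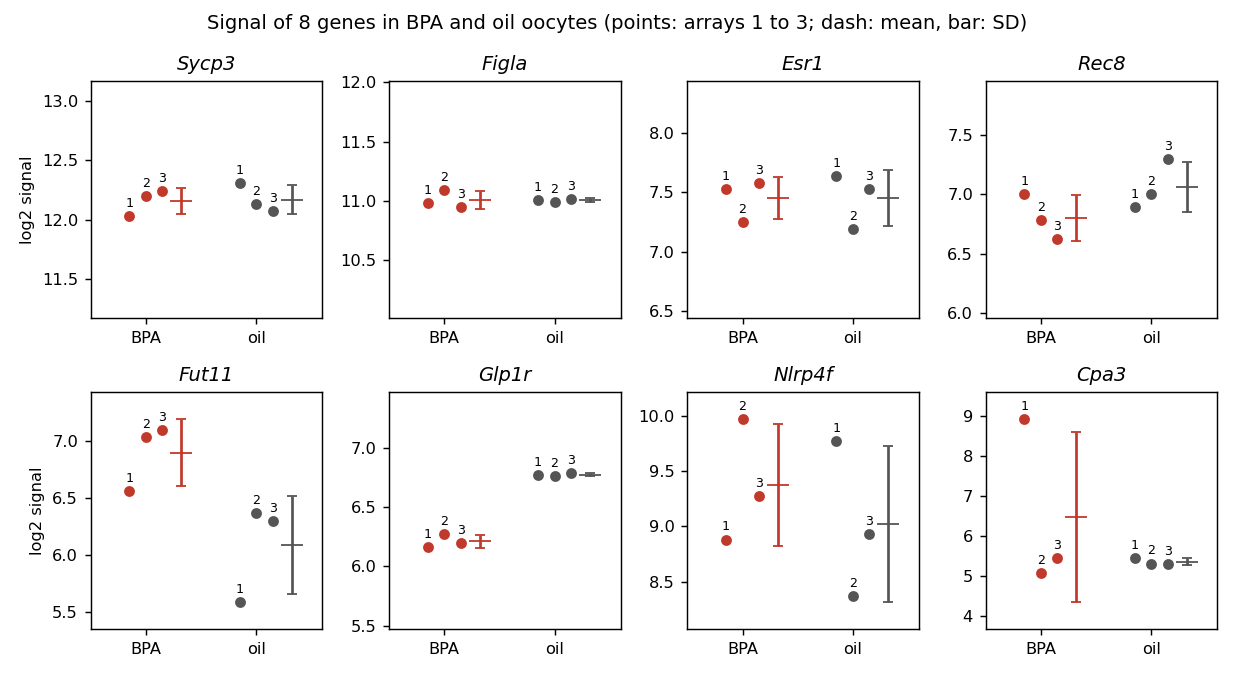
Log2 signal (vertical axes) of 8 genes in the 3 BPA and the 3 oil oocyte arrays, numbered by array, with the group mean as a dash and the SD as a bar. Sycp3, Figla and Esr1 cover the same range in both groups, Fut11 and Glp1r do not overlap although both missed the adjusted test, Nlrp4f varies by over 1 log2 unit within each group, and Cpa3 is high in BPA array 1 alone.

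Genes of oocyte growth varied more between arrays of a group than between the groups. Of 22 genes of the zona pellucida and the maternal store, 19 had a log2 fold change above 0. The median was 0.13, beside 0.002 over all genes. At an unadjusted p under 0.05 there were 0 of the 22, beside 3.86% of all genes. The mean of the list was 8.39, 9 and 8.47 in BPA oocytes, against 8.73, 8.23 and 8.52 in oil oocytes. BPA array 2 was the highest of the 6 arrays for 17 of the 22 genes, and oil array 2 the lowest for 14. Nlrp4f, a maternal gene, had 8.88, 9.97 and 9.27 in BPA oocytes, against 9.77, 8.37 and 8.93 in oil oocytes. H1f8, the linker histone of the oocyte, had 7.54, 8.54 and 7.53 in BPA oocytes, against 7.99, 7 and 7.49 in oil oocytes. In both genes BPA array 2 was highest and oil array 2 lowest, and the groups overlapped.

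Over all probes, r was 0.986 to 0.987 between BPA arrays, 0.985 to 0.99 between oil arrays and 0.985 to 0.991 between the groups. Arrays of a group still lay apart along the leading component of all genes, those of the list included. The first principal component of all 19938 genes over the 11 female arrays held 22.2% of the variance. With its sign set so that Nlrp4f counts upward, the scores were -17.2, 13.9 and -0.3 for BPA oocytes, 5.7 and 7.7 for DEHP, 8.1, 4.3 and -0.8 for VZ, and 5.4, -16.5 and -10.3 for oil oocytes. The ends of this axis were thus BPA array 1 and oil array 2 on one side and BPA array 2 on the other. Among its leading genes, chosen after their values were seen, were the lactate dehydrogenase gene Ldhb, with 9.1, 10.65 and 9.85 in BPA oocytes and 10.25, 8.91 and 9.58 in oil oocytes, and Btg4, which clears maternal transcripts in mature oocytes, with 6.45, 8.14 and 6.81 in BPA oocytes and 6.98, 6.53 and 6.75 in oil oocytes. Meioc, which sustains meiotic prophase, ran the other way, with 10.4, 9.48 and 10.12 in BPA oocytes and 9.73, 10.42 and 10.07 in oil oocytes.

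The median of the growth list depended on which array was left out. It was 0.27 without BPA array 1, 0.2 without BPA array 3, 0.22 without oil array 1 and 0.14 without oil array 3. It was -0.06 without BPA array 2 and -0.01 without oil array 2, so its direction rested on these arrays. Without BPA array 1, 9 of the 22 genes had an unadjusted p under 0.05, beside 6.5% of all genes in the same fit. Of the 22, 0 had an adjusted p under 0.05. Tcl1b3, an oocyte gene of the Tcl1 family named after its values were seen, had 5.32, 6.66 and 6.09 in BPA oocytes, against 5.35, 5.18 and 5.22 in oil oocytes. BPA array 1 lay within the oil range, and the log2 fold change was 0.77 (adjusted p = 0.618) with it and 1.12 (adjusted p = 0.0226, limma) without it. With the mean of the growth list as a covariate among the female arrays, a fit added after the data were seen, 0 probes passed the adjusted test and the smallest adjusted p was 0.31.

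Among 21 genes of oocyte attrition and apoptosis, Casp8 was the 1 gene at an unadjusted p under 0.05 (4.76%, beside 3.86% of all genes). Casp8, the initiator caspase of the death receptors, had 6.91, 7.08 and 6.69 in BPA oocytes, against 6.36, 6.57 and 6.67 in oil oocytes, a difference of 0.36 on the log2 scale (SE 0.16, adjusted p = 1). The groups did not overlap, but BPA array 3 and oil array 3 nearly met. Mcl1, which protects cells from death, had 0.19, and Bbc3, which encodes the death factor PUMA, had -0.2. Of 27 genes of the mitotic cycle, which these cells have left, 0 had an unadjusted p under 0.05, beside 3.86% of all genes. Cdkn1b, an inhibitor that also restrains growth of the oocyte, had the highest value, 0.32.

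Immediate early genes, which respond within minutes to growth signals and to handling, lay mostly below 0. Of 18 genes, 3 had log2 fold changes above 0, and the median was -0.08. At an unadjusted p under 0.05, 2 were lower and 0 higher (11.1%, beside 3.86% of all genes). Without BPA array 1, 0 reached that p, beside 6.5% of all genes in the same fit. Of the 18, 2 had a mean signal above that of the brightest Y-linked gene. Fos had 6.88, 6.92 and 6.64 in BPA oocytes, against 7.17, 7.35 and 6.97 in oil oocytes. Egr2 had 6.83, 6.81 and 6.97 in BPA oocytes, against 7.19, 7.08 and 7.15 in oil oocytes. The groups did not overlap at either gene, and both had an adjusted p of 1. Of 21 genes of the oxidative stress response, 0 had an unadjusted p under 0.05, beside 3.86% of all genes. The metallothionein gene Mt2 had 9.05, 9.06 and 9.06 in BPA oocytes, against 9.26, 9.49 and 9.14 in oil oocytes, with all BPA arrays lower (adjusted p = 1).

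All 29 histone methylation enzymes had intervals within 1.5-fold, beside 96.4% of all genes. Their log2 fold changes lay between -0.11 and 0.12. Kmt2c, which methylates histone H3 at enhancers, had 12.19, 12.01 and 11.9 in BPA oocytes, against 12, 12.06 and 12.08 in oil oocytes. Ehmt2, which encodes the methyltransferase G9a, had 9.68, 9.71 and 9.76 in BPA oocytes, against 9.86, 9.71 and 9.79 in oil oocytes. The groups overlapped at both genes. Of 18 genes of the DNA methylation machinery, 1 was lower at an unadjusted p under 0.05 (5.56%, beside 3.86% of all genes). That was Mbd2, a reader of methylated DNA, with 9.04, 9.04 and 8.96 in BPA oocytes against 9.33, 9.05 and 9.27 in oil oocytes (adjusted p = 1). Zfp57, which guards imprints in the oocyte and embryo, followed the growth genes, with 9.75, 10.87 and 10.26 in BPA oocytes and 10.58, 9.6 and 10.07 in oil oocytes.

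Of 49 imprinted genes, 2 were lower and 0 higher at an unadjusted p under 0.05 (4.08%, beside 3.86% of all genes). The median was -0.03. Asb4, expressed from the maternal copy in many tissues, had 6.23, 6.09 and 6.27 in BPA oocytes, against 6.65, 6.61 and 6.32 in oil oocytes, lower by a log2 mean difference of -0.33 (SE 0.12, adjusted p = 0.865). Usp29, expressed from the paternal copy, had 5.95, 5.52 and 5.45 in BPA oocytes, against 5.8, 6.08 and 6.02 in oil oocytes, and BPA array 1 lay among the oil values. Both genes were close to the signal of absent transcripts. Their total level was measured here and not the share of each parental copy.

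Other germline programmes gave no call. At an unadjusted p under 0.05 were 0 of 21 genes of pluripotency and germ cell identity, beside 3.86% of all genes. Of 21 genes of the piRNA pathway and germ granules, 0 had such a p. All 21 piRNA genes had intervals within 1.5-fold, beside 96.4% of all genes. Sox2 had the lowest value of the identity genes, -0.26, and Gtsf1, a piRNA factor, the highest of the piRNA genes, 0.23. Of 22 genes of BMP and SMAD signalling, 1 was lower at an unadjusted p under 0.05 (4.55%, beside 3.86% of all genes). That gene was Grem1, a secreted BMP antagonist. It had 6.94, 6.55 and 7 in BPA oocytes, against 7.37, 7.17 and 7.22 in oil oocytes, with all BPA arrays below all oil arrays (log2 fold change -0.42, adjusted p = 0.609). Id1, a target of BMP signals that is bright here, had 11.94, 11.63 and 11.87 in BPA oocytes, against 11.85, 12.12 and 12.12 in oil oocytes, and the groups overlapped.

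**Figure D2:**
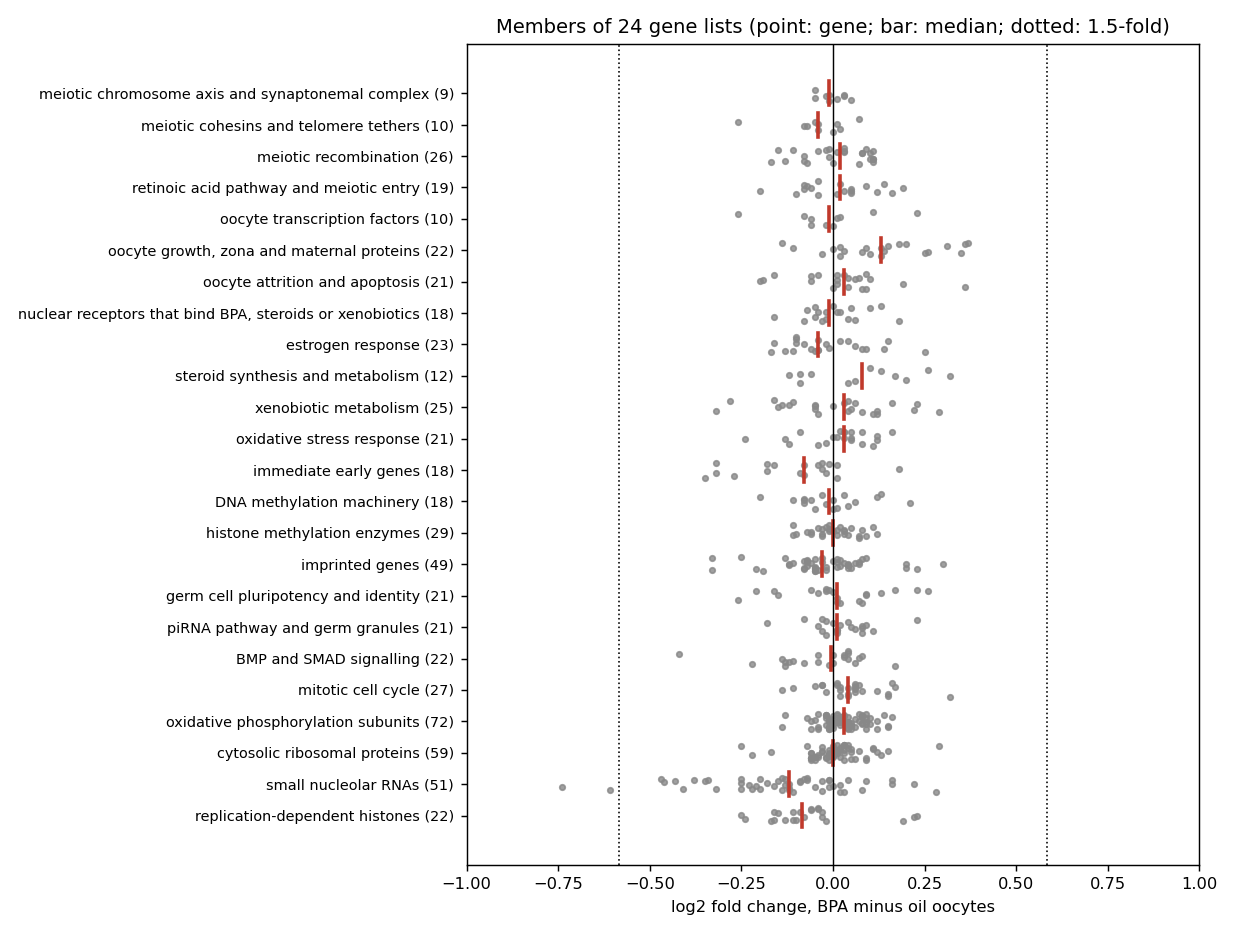
Log2 fold change of BPA over oil oocytes (horizontal axis) for each measured member of 24 gene lists, with the number of genes in brackets, the median as a bar and dotted lines at 1.5-fold. Medians run from -0.12 for small nucleolar RNAs to 0.13 for oocyte growth genes, and 2 snoRNAs lie beyond 1.5-fold.

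Genes of respiration and of the ribosome lay close to 0, and short RNAs were more spread. All 72 subunits of oxidative phosphorylation had intervals within 1.5-fold, with a median of 0.03. So did 58 of 59 cytosolic ribosomal protein genes, with a median that rounds to 0. Over all genes the share with such intervals was 96.4%. Small nucleolar RNAs, which guide the modification of ribosomal RNA, had the lowest median of all lists, -0.12, and 10 of 51 lay above 0. Of the 51, 3 were lower at an unadjusted p under 0.05 and 0 higher (5.88%, beside 3.86% of all genes). Snord73b had 11.07, 11.22 and 10.38 in BPA oocytes, against 11.67, 11.51 and 11.32 in oil oocytes. Snord53 had 11.72, 12.08 and 10.85 in BPA oocytes, against 12.11, 12.39 and 12.36 in oil oocytes. BPA array 3 was lowest for both, and the BPA arrays did not overlap the oil arrays, yet the adjusted p was 0.865 and 0.895.

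The snoRNA list was also below oil in the other exposed oocytes, which share the oil arrays, with medians of -0.19 after DEHP and -0.2 after VZ. Its mean was 9.07, 9.25 and 9.03 after BPA, 9.18 and 8.93 after DEHP, 9.08, 8.91 and 8.99 after VZ, and 9.26, 9.3 and 9.22 in oil oocytes. All exposed arrays but BPA array 2 lay below the oil arrays. In males the median of the list for BPA over oil was -0.1. Of 22 histone genes of the class expressed while DNA is copied, 3 lay above 0, and the median was -0.09. At an unadjusted p under 0.05, 1 was higher and 0 were lower (4.55%, beside 3.86% of all genes). That gene, H3c7, had 4.81, 5.02 and 4.81 in BPA oocytes, against 4.72, 4.81 and 4.45 in oil oocytes (adjusted p = 1). The histone gene H2bc1, an early germline variant, had 12.51, 12.14 and 12.54 in BPA oocytes, against 12.47, 12.78 and 12.7 in oil oocytes, and the groups overlapped.

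Olfactory receptor genes, most of which are silent outside the nose, served as a measure of dim probes. Of 1015 such genes, 15 were higher and 70 lower at an unadjusted p under 0.05, which is 8.37% of the list beside 3.86% of all genes. The median log2 fold change was -0.07, and 0 passed the adjusted test. The median was 0.02 without BPA array 2 and 0 without oil array 1. Their mean signal by array was 5.52, 5.35 and 5.69 in BPA oocytes, against 5.73, 5.56 and 5.48 in oil oocytes, so that the groups overlapped.

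The 12 genes with the smallest p in each direction, among those whose groups did not overlap, had log2 fold changes of 0.27 to 0.82 and of -0.56 to -0.39. Their adjusted p ran from 0.229 to 0.662, so none passed the test. The genes were mostly dim, with a median signal of 6.45 against 7.43 over all genes. Above 8.13, the highest mean signal of the Y-linked genes, were 1 of the 12 higher and 0 of the 12 lower genes. Over all genes that share was 39%. The other leading genes were no brighter than an absent transcript can be on this array. Since the rule asked for small p and for groups that do not overlap, the separation of the leading genes describes how they were picked.

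On the higher side, Fut11, which encodes a fucosyltransferase of the Golgi, had the largest difference. Its signals were 6.56, 7.04 and 7.1 in BPA oocytes, against 5.59, 6.37 and 6.3 in oil oocytes (log2 fold change 0.82, SE 0.21, adjusted p = 0.609). Olfr993, an olfactory receptor gene, had the smallest p of these genes, with 4.71, 4.18 and 4.54 in BPA oocytes against 3.66, 3.85 and 3.92 in oil oocytes. Both groups lay at the level of silent genes. Zfp595, a zinc finger gene of the KRAB type, had 6.94, 6.88 and 6.62 in BPA oocytes, against 6.32, 6.36 and 5.96 in oil oocytes (log2 fold change 0.6, adjusted p = 0.342).

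Nbn was the brightest of the higher genes. It encodes nibrin, a part of the complex that senses and trims DNA double-strand breaks, meiotic ones included. Its signals were 8.42, 8.76 and 8.65 in BPA oocytes, against 8.35, 8.35 and 8.33 in oil oocytes. All BPA arrays were higher, BPA array 1 by the smallest margin, and the log2 fold change was 0.27 (SE 0.08, 95% interval 0.11 to 0.42, adjusted p = 0.629). Pde3a, a phosphodiesterase gene whose product breaks down cAMP, had 6.93, 7.39 and 7.06 in BPA oocytes, against 6.78, 6.68 and 6.73 in oil oocytes (log2 fold change 0.39, adjusted p = 0.629). Cmip, an adaptor of T cell signalling, had 7.56, 7.78 and 7.52 in BPA oocytes, against 7.28, 7.35 and 7.3 in oil oocytes. Ttc30b, a gene of transport in cilia, had a log2 fold change of 0.53, and Adam39, 9130008F23Rik, Gm10452, Gm24148 and 1700013H16Rik had 0.31 to 0.57.

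On the lower side, Glp1r, the receptor gene of the gut hormone GLP-1, had the largest difference. Its signals were 6.16, 6.27 and 6.2 in BPA oocytes, against 6.77, 6.76 and 6.79 in oil oocytes (log2 fold change -0.56, SE 0.12, adjusted p = 0.342). Tmem139, a membrane protein gene, had 6.15, 6.25 and 6.18 in BPA oocytes, against 6.78, 6.42 and 6.71 in oil oocytes. Slc46a3, a lysosomal transporter gene, had 6.6, 6.55 and 6.84 in BPA oocytes, against 6.87, 7.14 and 7.18 in oil oocytes. BPA array 3 and oil array 1 nearly met there. Cacna1g, which encodes a T-type calcium channel, had 6.7, 6.57 and 6.74 in BPA oocytes, against 7.12, 6.99 and 7.29 in oil oocytes (log2 fold change -0.46, adjusted p = 0.546). Tmeff2, the brightest of the lower genes, had 7.1, 6.99 and 7.04 in BPA oocytes, against 7.32, 7.56 and 7.48 in oil oocytes. Gm5478, Ssxb2, Olfr43, Pvt1, Fat3 and Vit had log2 fold changes of -0.49 to -0.39.

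**Figure D3:**
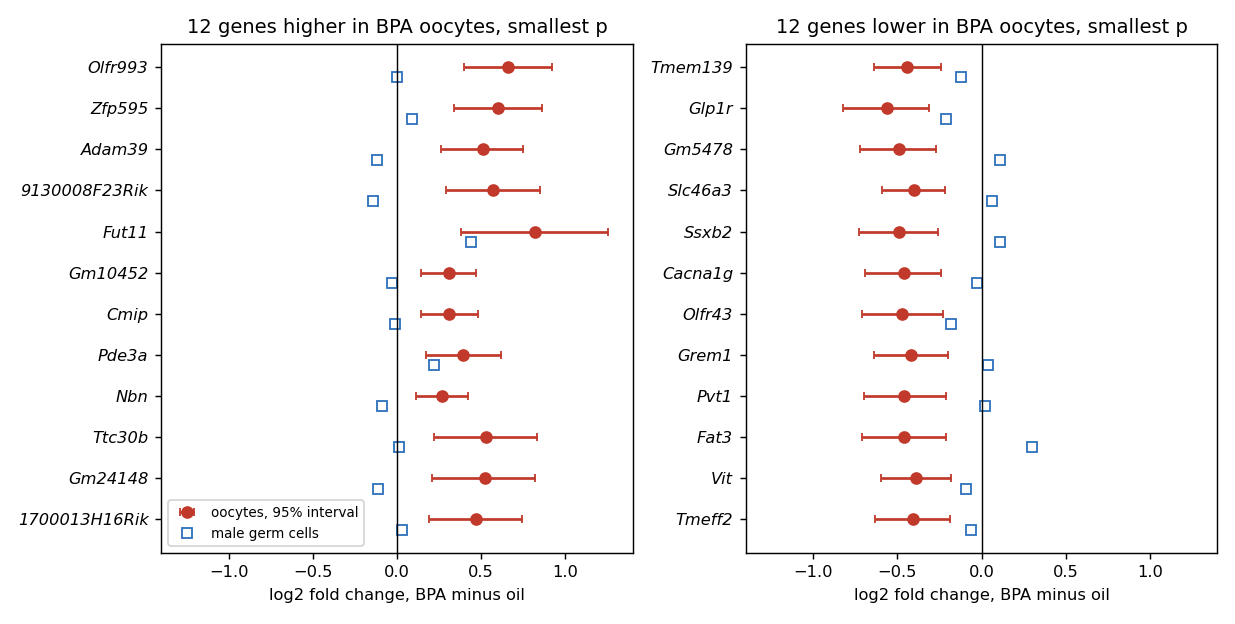
Log2 fold change of BPA over oil (horizontal axes) for the 12 higher and the 12 lower genes of smallest p, as filled circles with the 95% interval in oocytes and as open squares in male germ cells. The intervals in oocytes were not adjusted for the choice of the genes, and in males 5 of the 12 higher genes were above 0 and 6 of the 12 lower genes below 0.

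Probes outside the annotation made up most of the larger differences. At an unadjusted p under 0.05 and at least 1.5-fold there were 274 probes (0.771%), of which 259 have no gene in the annotation and 15 name a single gene. The 259 had a median log2 signal of 5.69. Probe 10341977, the smallest p of all, had 3.12, 3.06 and 3.15 in BPA oocytes, against 3.96, 3.49 and 3.93 in oil oocytes, and probe 10338337 had 3.27, 4.66 and 3.87 against 5, 5.09 and 4.93. Among those higher in BPA oocytes, probe 10415766 had 8.63, 8.53 and 8.65, against 8.24, 8.17 and 8.13 in oil oocytes, and probe 10344103 had 7.93, 7.84 and 7.57 against 6.79, 7.34 and 6.71. What these probes measure is not known here.

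The share of probes at an unadjusted p under 0.05 went down steadily with signal. It was 10.2% of 2757 probes with a mean log2 signal under 5, 7.76% from 5 to 6, 6.21% from 6 to 7, 4.64% from 7 to 8, 1.68% from 8 to 10, and 0.648% of 4627 probes of 10 or more. Most of the meiotic and oocyte genes above lie in the brighter ranges. The median standard error also went down, with 0.149 under 5 and 0.0996 at 10 or more, and the cause of the unequal shares was not tested.

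**Figure D4:**
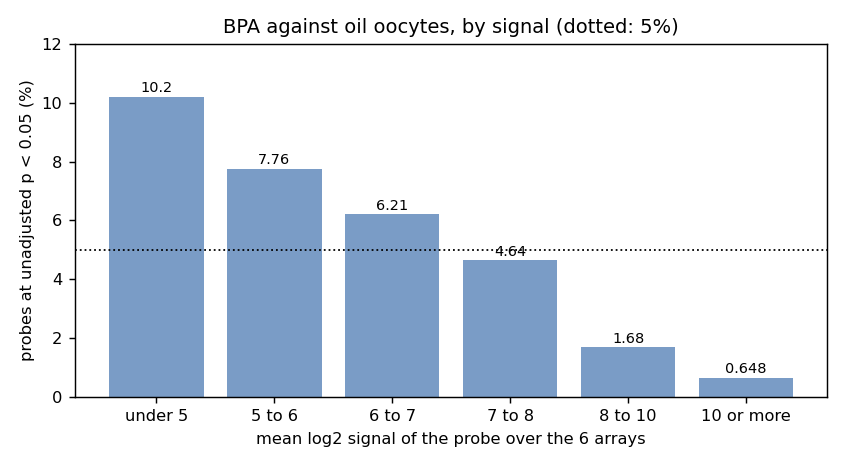
Share of probes with an unadjusted p under 0.05 for BPA against oil oocytes (vertical axis, percent) in 6 ranges of the mean log2 signal over the 6 arrays (horizontal axis), with a dotted line at 5%. The share is 10.2% in the dimmest and 0.648% in the brightest range.

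The change after BPA was compared between the sexes with the 3 BPA and 3 oil arrays of male germ cells, collected at the same age after the same doses. In limma, 0 of 35556 probes had a sex difference of the BPA change at an adjusted p under 0.05 (0%), with 1720 at an unadjusted p under 0.05. Across 19938 genes, which are not independent replicates, the log2 fold changes of oocytes and male germ cells correlated with r = 0.09. Of the 769 genes at an unadjusted p under 0.05 in oocytes, 448 (58.3%) had the same sign in males. Of these, 34 also had an unadjusted p under 0.05 there. The same shares over all genes were not computed, so no shared response is read from these counts. Somatic markers reached higher levels in BPA than in oil male arrays, with overlap. The mean of 13 stromal markers lay between 7.84 and 9.28 in BPA males and between 7.76 and 8.15 in oil males, with median log2 fold changes of 0.66 for stromal and 0.38 for granulosa cell markers. Their part in the sex comparison was not tested. Fut11 had log2 fold changes of 0.82 in oocytes and 0.44 in males, and Pde3a had 0.39 and 0.22. Glp1r had -0.56 in oocytes and -0.21 in males. Fat3, a large cadherin gene, had -0.46 in oocytes and 0.3 in males, and the difference between the sexes missed the adjusted test as well (adjusted p = 0.705). Leaving out BPA male array 3 gave 66 probes with a sex difference at that threshold, and leaving out oil male array 2 gave 1.

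Oocytes of dams given DEHP, 750 mg/kg a day, or VZ, 100 mg/kg a day, over the same days were set directly against BPA oocytes, since their changes against oil share the oil arrays. In limma, 0 probes differed between BPA and DEHP oocytes (0%) and 0 between BPA and VZ oocytes (0%) at an adjusted p under 0.05, with 1796 and 1745 at an unadjusted p under 0.05. Without BPA array 1 these counts were 4 and 1, without BPA array 2 there were 2 against VZ, without DEHP array 2 there were 4 against DEHP, and without VZ array 1 there was 1 against VZ. The doses differ, and DEHP has 2 female arrays. Cpa3 had a BPA minus DEHP difference of -2.09 on the log2 scale (adjusted p = 0.79), from 1 high and 2 low BPA arrays. Fut11 had a BPA minus VZ difference of 0.85 (adjusted p = 0.614) and a BPA minus DEHP difference of 0.74 (adjusted p = 0.888). Fos had 6.88, 6.92 and 6.64 in BPA oocytes, against 7.54 and 7.19 in DEHP and 7.23, 7.35 and 7.24 in VZ oocytes.

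The changes of the leading genes after DEHP and VZ were taken against the same oil arrays, and are given side by side for a few of them. Tmem139 had log2 fold changes against oil of -0.44 after BPA, -0.37 after DEHP and -0.38 after VZ, Tmeff2 had -0.41, -0.39 and -0.46, and Vit had -0.39, -0.35 and -0.39. Elsewhere the values differed more, Nbn having 0.27 for BPA, -0.01 for DEHP and -0.04 for VZ, and Gm10452 having 0.31, 0 and -0.01. The direct differences of Nbn were 0.27 against DEHP (adjusted p = 0.824) and 0.31 against VZ (adjusted p = 0.604), read after the gene had been picked on its BPA values.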

How the data were processed

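The authors normalized the Mouse Gene 1.0 ST arrays by robust multichip averaging (RMA) in Partek, whose version is not given in the sources used here, and deposited log2 values of 35556 probes in 32 arrays. Each array took its group from its label. A model with a mean for each of 11 groups was fitted with limma 3.58.1 in R 4.3.3 (21 residual and 3.67 prior degrees of freedom), and p-values were adjusted by the Benjamini-Hochberg method over all probes at a threshold of 0.05. Fold changes are differences of mean log2 values, which RMA compresses for dim probes. Of the probes, 21789 name a single gene, 21698 of them checked through Entrez identifiers against GRCm38.p6, and the probe with the highest mean stood for each of 19938 genes.

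The model was tested on simulated data. Genes were named by a rule: the 12 smallest p in each direction without overlap of the groups, all receptors and marker genes, up to 3 members of each other list by p, and genes named earlier. The members, the 25 gene lists and the 8 marker lists were chosen with earlier results of these data known. The number of arrays limits the precision. Alternatives were another normalization, filters, weights, variance models, fewer arrays and a replicate block. Python 3.11.15 and matplotlib 3.10.9 were used for tables and figures.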

Additional observations from a re-analysis of the deposited data

How the results depend on the processing

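The count of 0 probes at an adjusted p under 0.05 for BPA against oil oocytes was the same with cyclic loess, array weights, an intensity trend, unmoderated variances, fewer arrays or probes, and the growth covariate. Leaving out 1 array gave 0 to 3 (without BPA array 2, 3 with Olfr993 among them; without oil array 2, 2; without BPA array 1, 1), and 0 to 66 for the sex difference, 0 to 4 for BPA against DEHP (4 without BPA array 1 or DEHP array 2) and 0 to 2 for BPA against VZ. The 274 probes at an unadjusted p under 0.05 and 1.5-fold were 44 above the dim limit of 6.7, 18 among single-gene probes and 333 to 451 with an array left out (451 without BPA array 3, 447 without oil array 3). With the smaller fold limit of the methods, 1622 became 752, 913, and 1496 to 2318. Where other probes are tested the counts change by construction; for arrays left out the cause was not tested. The labels do not say whether replicate numbers pair the arrays. Deviations from the group mean correlated at -0.27, -0.17 and -0.35 for same-numbered BPA and oil arrays, and at -0.04 to 0.33 for the others. These values cannot decide on pairing, since deviations within a group of 3 arrays depend on each other. A replicate block gave 0, 273 and 1611 probes. The share of probes with an interval within 1.5-fold was 81.7% to 89.9%, against 83.3%. Among 229 recomputed values of the 24 leading genes, 0 changed sign. These genes were picked for groups that do not overlap, so leaving out an array could not turn their sign. Of 272 recomputed list medians, 16 moved by over the SD between arrays, 6 of them of markers of prospermatogonia.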

Other observations

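Pkd1l1, a gene of the polycystin family picked after its values were seen, differed between arrays of the same group by more than any oocyte gene named above. It had log2 signals of 10.2, 7.61 and 8.76 in BPA oocytes, against 7.62, 10.21 and 7.77 in oil oocytes, with 9.75 and 8.36 after DEHP and 9.28, 9.42 and 9.96 after VZ. BPA array 1 and oil array 2 were high, and BPA array 2 and oil array 1 were low, which is the order of the growth genes turned round. The log2 fold change was 0.33 (95% interval -0.69 to 1.35).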
